A study of Mus musculus with 2 samples.

Results

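The 10 genes described here, Fos, Fosb, Jun, Junb, Egr1, Egr2, Egr3, Arc, Nr4a1 and Npas4, are activity-dependent immediate early genes, and all 10 were found by name among the 19720 genes of the deposited table. RNA sequencing counted their reads in the forebrain of mouse embryos, in 1 control library and 1 H2A.Z conditional knockout library. The control mice carried H2AZfl/fl alleles, although the sample title calls them WT, and the knockout mice were labelled H2AZcKO. Both were of the C57BL/6 strain, and no other allele or agent is named. Not given in the sources used here are the promoter that drives the recombinase, the deleted exons and any pooling of embryos. Titles give embryonic day 16 and a characteristics field embryonic day 12, so the age of both groups is uncertain between these. The tissue is labelled telencephalic while the protocol speaks of cortex. The design text speaks of triplicates, whereas the table has 1 count column per genotype. There was therefore no replicate, no test and no p-value, and each difference below is between these 2 libraries.

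Immediate early genes are transcribed within minutes of a stimulus from factors already present in the cell, before any new protein is made. In neurons, calcium entry and the MAP kinase cascade act on the transcription factors CREB, SRF and MEF2 at their promoters and enhancers, and most of the products are themselves transcription factors that switch on a later wave of genes. Their levels are low in unstimulated tissue and they are used as markers of recent neuronal activity, of growth factor signalling and of tissue handling. H2A.Z is a histone H2A variant found in nucleosomes beside transcription start sites, and its presence at activity-induced genes has been studied in the adult hippocampus in relation to memory.

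The promoters of the members can be read for the elements through which calcium and growth factor signals act. RefSeq promoter windows on GRCm38.p6, 250 bases before to 50 after the start, were at hand for 7 of the 10 (Fos, Fosb, Jun, Junb, Egr2, Nr4a1 and Npas4; Egr2 has several starts). The 250 bases before the start are shown for 4 of them: Jun, the member with most reads, Nr4a1 and Npas4, whose log2 ratios between genotypes lay on opposite sides of 0 with intervals that include 0, and Fos, the member that gives the group its textbook example. They are written 5′ to 3′ on the strand of the gene. Capitals mark matches to TGACG, the core of the cyclic AMP response element, or to CGTCA, the same core on the other strand, to TATAAA, the TATA box, and, in Jun, to TGACATCA, the AP-1-like site through which c-Jun acts on its own gene.
Jun, chr4:95052223-95052472, minus strand: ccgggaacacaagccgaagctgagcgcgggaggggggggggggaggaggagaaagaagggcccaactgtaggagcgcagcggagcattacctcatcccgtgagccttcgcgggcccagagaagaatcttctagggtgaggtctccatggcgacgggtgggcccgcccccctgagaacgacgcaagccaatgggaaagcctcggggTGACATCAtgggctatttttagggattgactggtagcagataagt
Fos, chr12:85473640-85473889, plus strand: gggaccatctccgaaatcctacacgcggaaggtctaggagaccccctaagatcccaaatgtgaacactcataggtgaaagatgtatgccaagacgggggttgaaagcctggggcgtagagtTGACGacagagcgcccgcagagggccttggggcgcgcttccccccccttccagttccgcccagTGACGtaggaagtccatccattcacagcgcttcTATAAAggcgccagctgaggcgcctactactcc
Nr4a1, chr15:101266596-101266845, plus strand: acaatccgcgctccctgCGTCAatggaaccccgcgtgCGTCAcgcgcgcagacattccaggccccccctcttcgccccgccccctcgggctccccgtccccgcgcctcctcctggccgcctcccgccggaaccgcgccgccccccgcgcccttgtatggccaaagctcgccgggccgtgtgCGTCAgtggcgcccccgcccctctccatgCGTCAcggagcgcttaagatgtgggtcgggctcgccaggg
Npas4, chr19:4989972-4990221, minus strand: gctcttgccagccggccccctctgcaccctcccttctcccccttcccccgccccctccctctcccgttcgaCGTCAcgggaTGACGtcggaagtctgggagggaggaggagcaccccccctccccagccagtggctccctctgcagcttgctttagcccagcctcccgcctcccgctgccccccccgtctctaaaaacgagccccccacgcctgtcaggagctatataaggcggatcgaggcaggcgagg

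The core TGACG, searched on both strands of the full window, was present in 6 of the 7 members and in 20.8% of all 32851 reference promoter windows. Here and below, a member counts when any of its windows holds the match, whereas the shares are of single windows. Egr2, with several windows, therefore has more chances of a match than a single window. Member windows were rich in G and C, between 56% and 72.3% against a median of 52.7% over all windows, and 30.7% of the 11252 windows in that range held the core. Jun was the member without it. The full element TGACGTCA, which contains the core on both strands, was in 0 of 7 members, in 1.79% of all windows and in 3.23% of those in the members' range of G and C. In Npas4 the core occurred once on each strand, from -179 to -175 and from -169 to -165 with the start as 0. In Fos it ended at -62 and at -125, and the TATA box lay from -33 to -28. The serum response element (CArG box), the binding site of SRF, was in 1 of 7 members, Egr2, in 1.63% of all windows and in 1.298% of those in that range. The AP-1 site TGANTCA was in 0 of 7 (7.81% of all windows and 4.29% of those in range) and the EGR site GCGTGGGCG in 0 of 7 (0.612% and 1.03%). TATAAA was in 2 of 7, Fos and Junb (13.6% and 4.63%). In Junb these letters lay from 0 to 5, at the start and not before it as in Fos. The letters TGACATCA, searched after the Jun sequence had been seen, were in Jun alone among the members, in 3.62% of all windows and in 1.42% of those in range. These are matches of letters in short windows, and elements further upstream, such as the known serum response element of Fos, lie outside them.

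The members are alike in their short span, while their exon numbers vary. In the deposited coordinates, which fit GRCm38, all 10 spanned less than 10 kb, from 1840 bp for Junb to 7947 bp for Nr4a1, with a median of 4325 bp. The GENCODE M21 model of Nr4a1 is longer than 10 kb, from 101254269 to 101274795, so this count holds for the deposited coordinates only. The 13075 measured protein-coding genes had a median span of 26064 bp, and 22.7% of them were under 10 kb. Principal transcripts of the members in GENCODE M21 had a median of 2.5 exons, against 9 for the measured protein-coding genes. Jun and Junb are single-exon genes, whereas Nr4a1 and Npas4 have 8 exons each. The AU-rich motif TATTTAT, a signal of rapid mRNA decay when it lies in a 3′ UTR, was present in 3 of 10 members, with 2 copies in Fos and 1 each in Fosb and Jun. It was in 30.1% of measured protein-coding genes whose 3′ UTR was as long as the members' (485 to 2645 bases), near the share among the members.

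Reads in genes numbered 8474545 for the control and 9028523 for the knockout. Those with 20 or more reads over both libraries, 14366 genes, are called measured. Counts were scaled by the TMM method, and a gene is called apart when the libraries differed at least 1.5-fold either way. H2afz, the targeted gene, had 1152 control and 535 knockout reads, 2.24-fold lower, and its paralog H2afv had 1009 and 1095. The telencephalic markers Neurod6 (6390 and 6326 reads) and Tbr1 (4575 and 4495) were abundant in both libraries. Markers of adjoining tissue were unequal between the libraries. Summed over 12 choroid plexus genes the level was 826.3 and 26.5 CPM (counts per 1000000 TMM-scaled reads), of which Ttr alone had 702.4 and 1.35, and without Ttr it was 123.9 and 25.1. Over 13 genes of meninges and fibroblasts the sum was 374.2 and 160.9 CPM, of which Zic1 alone had 117.1 and 138.9, and without Zic1 it was 257.2 and 21.97. Of the 12 measured genes of that list 10 were at least 1.5-fold lower. Of all measured genes 5.43% were, and 19.6% of those with 20 to 99 reads. Over 12 genes of diencephalon and midbrain the sum was 86.7 and 224.2 CPM, of which Tcf7l2 alone had 12.9 and 114.01, and without Tcf7l2 it was 73.8 and 110.2. Lhx9, which led the sum in control, had 42.3 CPM in each library. Without Lhx9 the sum was 44.4 and 181.9. Genotype and the tissue that each library held therefore cannot be told apart, nor, in bulk tissue, can fewer cells of a type and less RNA per cell.

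None of the 8 measured immediate early genes differed between the libraries of the 2 genotypes beyond counting error, and the counting interval of the most abundant, Jun, was the narrowest. Of the 10 members, 8 were measured, 1 (Egr3) was at least 1.5-fold lower in the knockout library, 0 were higher and 7 were neither. The background over all measured genes was 5.43% lower and 3.52% higher by that limit. Of the 5 members with 20 to 99 reads, Egr3 was the 1 that was lower, and 19.6% of all 2966 measured genes in that range of reads were. Beyond counting error, that is where the exact 95% interval (Clopper-Pearson) of the knockout share of a gene's reads leaves out an equal level, there were 0 of 8 members and 21.8% of measured genes. That share was 12.9% among genes with 20 to 99 reads, 18.7% from 100 to below 1000 and 32.1% with 1000 or more. Over the 8, the median of the log2 ratio (knockout over control) was -0.12, with 6 below 0 and 2 above. Over all measured genes the median was 0.0018 and 49.6% were below 0. In the range of 20 to 99 reads, where 5 of the 8 members lie, the median of measured genes was -0.097 and 57.9% were below 0. Intervals cover counting error only: no biological spread was measured, and reads are not independent molecules.

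Summed over all 10 members, the control library held 1056 reads and the knockout library 1015, or 123.1 and 113.8 CPM. The knockout sum over the control sum was, on the log2 scale, -0.11 (interval -0.24 to 0.01), and it was -0.15 (-0.27 to -0.02) when scaled by library total, where the interval no longer reached 0. Without Jun, 295 and 282 reads remained, a log2 ratio of -0.12 (-0.36 to 0.12). In the authors' deposited table, 0 of the 10 were marked significant, and their adjusted p-values ran from 0.265 for Jun to 0.934 for Junb. The share of all genes marked so was not computed, so this count has no background beside it.

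**Figure D1:**
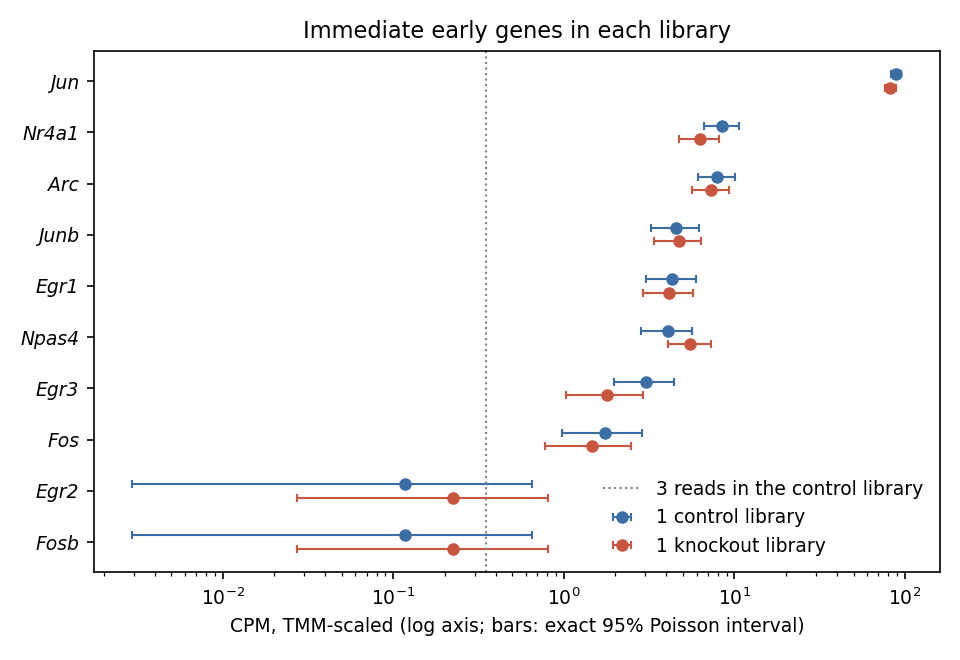
Level of each of the 10 genes in the control (blue) and knockout (red) library, in TMM-scaled CPM on a log axis, with exact 95% Poisson intervals for counting error and a dotted line at 3 control reads. Jun stood at 88.7 and 82.2, the other measured members between 1.46 and 8.51, and Fosb and Egr2 below the dotted line.

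Jun encodes c-Jun, the main partner of the FOS proteins in the dimeric transcription factor AP-1, and in neurons it also responds to stress kinases and axon injury. Its single exon spans 95049034 to 95052222 of chromosome 4. The control library held 761 Jun reads and the knockout library 733, and no other member had more than 73 in either. The log2 ratio was -0.11 (-0.26 to 0.04). At this depth a difference of 1.11-fold either way would have passed counting error. Jun is thus the member with the narrowest counting interval, from 1.197-fold lower to 1.03-fold higher, which holds no spread between embryos or dissections. The antisense RNA Junos shares 232 bases of exon with Jun and had 11 and 7 reads. No source used here gives the strand setting of the counting, and reads in the shared stretch cannot be assigned with certainty.

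Jun alone made up 72.1% of the reads of the 10 genes in the control library (interval 69.3% to 74.8%) and 72.2% in the knockout library (69.4% to 74.95%). For each of the other groups of members the intervals of the control and knockout shares overlap. The EGR genes took 6.06% (4.70% to 7.67%) and 5.42% (4.11% to 6.995%). Arc took 6.44% (5.03% to 8.09%) and 6.404% (4.98% to 8.09%). Nr4a1 went from 6.91% (5.46% to 8.61%) to 5.52% (4.19% to 7.11%) and Npas4 from 3.31% (2.32% to 4.58%) to 4.83% (3.59% to 6.33%). Fos and Fosb together were 1.52% and 1.48%.

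Junb encodes a JUN paralog that can oppose c-Jun at AP-1 sites. It had 39 control and 42 knockout reads, which put its log2 ratio at 0.05 (-0.61 to 0.72), on chromosome 8 from 84976909 to 84978748. Fos, which encodes the partner of c-Jun whose mRNA is the most used marker of recently active neurons, lies on chromosome 12 from 85473890 to 85477273. It had 15 and 13 reads, which put its log2 ratio at -0.26 (-1.45 to 0.91). With so few reads, a difference had to exceed 2.51-fold downward or 2.32-fold upward to pass counting error. Fosb, a FOS paralog whose products accumulate on repeated stimulation, lies on chromosome 7 from 19302721 to 19310045 and had 1 and 2 reads. Both values lie under the floor of 3 reads, so no fold is given, and no difference was detectable at this depth.

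Of the EGR genes, zinc finger transcription factors downstream of SRF and MAP kinase, Egr1 had 37 reads in each library, a log2 ratio of -0.06 (-0.75 to 0.64). It lies on chromosome 18 from 34859823 to 34864984. Egr3, which neuronal activity induces and which acts in muscle spindle and synaptic development, had 26 control and 16 knockout reads. It lies on chromosome 14 from 70077445 to 70080157. Its log2 ratio of -0.74 (-1.75 to 0.20), or 1.67-fold lower, was the furthest of the 8 from 0, and its interval includes 0. Egr2, a factor of hindbrain patterning and of myelinating Schwann cells, lies on chromosome 10 from 67535475 to 67542188. It had 1 and 2 reads and is given no fold. The 3 genes together had 64 and 55 reads, which put their log2 ratio at -0.27 (-0.82 to 0.27).

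Arc is the member that is not a transcription factor. It encodes a capsid-forming synaptic protein that promotes removal of AMPA receptors from the membrane, and lies on chromosome 15 from 74669083 to 74672570. Arc had 68 and 65 reads, which put its log2 ratio at -0.12 (-0.63 to 0.39). The interval, for counting error only, ran from 1.55-fold lower to 1.31-fold higher. Nr4a1, an orphan nuclear receptor also called Nur77, had 73 and 56 reads, which put its log2 ratio at -0.44 (-0.97 to 0.08), on the same chromosome from 101266846 to 101274792. Npas4, a basic helix-loop-helix PAS factor that responds to calcium entry and to few other stimuli and that organises inhibitory synapses, lies on chromosome 19 from 4984355 to 4989971. It had 35 and 49 reads, which put its log2 ratio at 0.42 (-0.23 to 1.10), and was the highest of the 8.

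Npas4 had the highest and Egr3 the lowest log2 ratio of the measured members, and since both intervals include 0, a difference in sign among the members was not resolved.

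**Figure D2:**
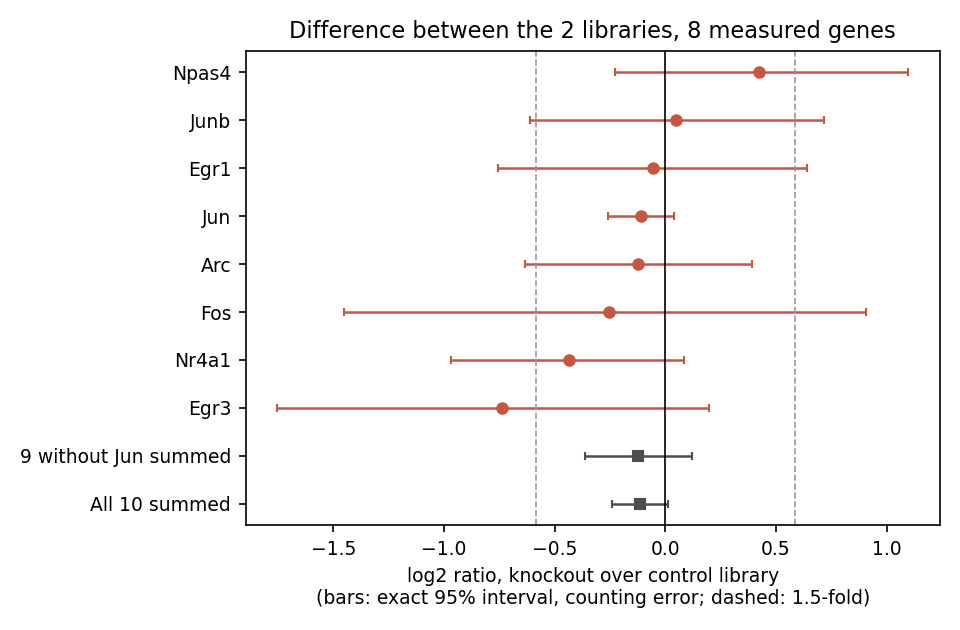
Log2 ratios, knockout over control, for each of the 8 measured genes (red circles) and for reads summed over all 10 or over 9 without Jun (grey squares), with exact 95% intervals for counting error and dashed lines at 1.5-fold. Every interval reaches 0, and that of Jun, -0.26 to 0.04, is the narrowest of the single genes.

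**Figure D3:**
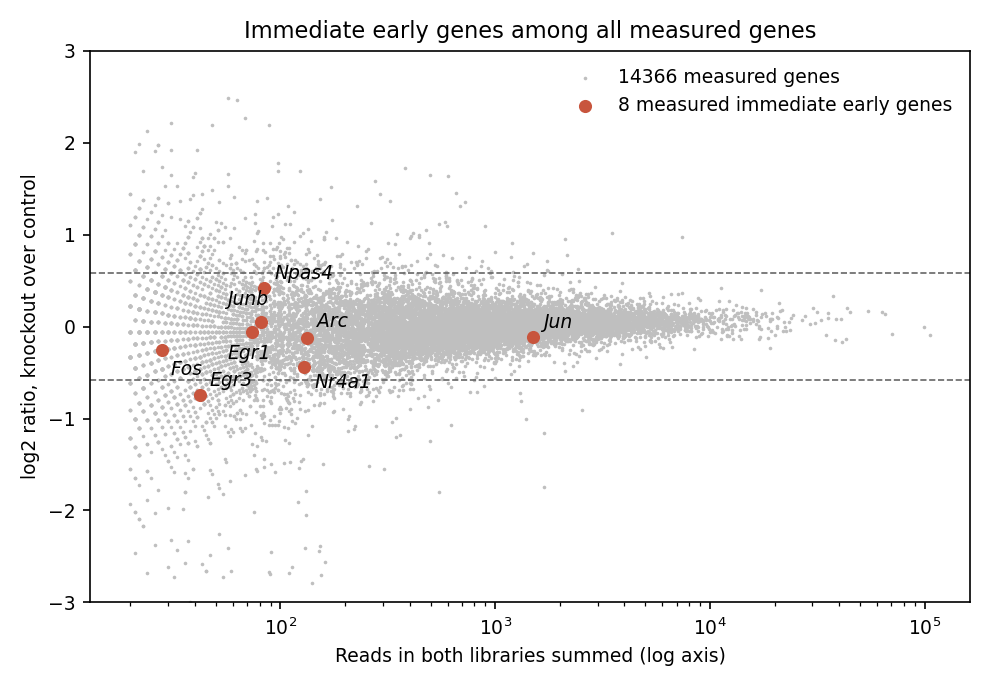
Log2 ratios, knockout over control, of 14366 measured genes (grey) against their reads summed over both libraries (log axis), with the 8 measured immediate early genes in red and dashed lines at 1.5-fold; 64 genes lie beyond the axis limits of 3 either way. The members sit inside the spread of genes with as many reads, and 7 of the 8 lie between the dashed lines.

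Levels can be set between genes only per length. In CPM per kilobase of exon, Jun stood at 27.8 in control and 25.8 in knockout, above 87.8% and 86.0% of measured genes. In the order of the control library, Arc (2.59 and 2.38), Nr4a1 (2.58 and 1.90), Junb (2.51 and 2.60) and Egr3 (1.78 and 1.05) followed, then Npas4 (1.08 and 1.45), Egr1 (0.962 and 0.925) and Fos (0.744 and 0.620). Fosb (0.0188 and 0.0361) and Egr2 (0.0343 and 0.0660) were lowest. In the knockout library Junb came next after Jun, and Npas4 lay above Egr3. In the control library the intervals of Arc (2.01 to 3.29), Nr4a1 (2.02 to 3.24), Junb (1.79 to 3.44) and Egr3 (1.16 to 2.60) overlapped, so their order is not resolved. Those of Npas4 (0.7497 to 1.497), Egr1 (0.677 to 1.33) and Fos (0.416 to 1.23) overlapped likewise. Fos lay above 8.97% of measured genes in control and 8.09% in knockout. The exon length is that of GENCODE M21 within the deposited start and end, which differ from the GENCODE ones for Egr3, Fosb, Junb, Npas4 and Nr4a1, so the levels of these 5 depend on the gene model.

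In the AP-1 and NR4A families the most abundant genes of this tissue were not members. JunD, encoded by Jund, is the JUN protein expressed without a stimulus, and it took 63.9% of the AP-1 level per kilobase over 7 genes in control and 68.9% in knockout, against 28.03% and 23.4% for Jun. Jund had 908 and 1130 reads, which put its log2 ratio at 0.26 (0.13 to 0.39), beyond counting error but less than 1.5-fold. The 4 FOS genes together had 289 and 311 reads, most of them from Fosl2 with 245 and 257. The log2 ratio of their sum was 0.05 (-0.19 to 0.29). Fosl1, which encodes FRA1, had 28 and 39 reads, which put its log2 ratio at 0.41 (-0.32 to 1.18). The 3 JUN genes together were at 0.10 (0.01 to 0.20), but at 0.07 (-0.03 to 0.16) when scaled by library total.

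Among the nuclear receptors of the NR4A family, Nr4a1 made up 8.79% and 7.36% of the level per kilobase. Nr4a3, also called NOR1, took 52.4% and 45.8% and had 789 and 631 reads, which put its log2 ratio at -0.38 (-0.53 to -0.23). Nr4a2, or NURR1, which also specifies dopaminergic and some cortical neurons, had 396 and 438 reads and was at 0.09 (-0.11 to 0.29). The sum of the 3 was lower in the knockout library under each of the 3 scalings, with a log2 ratio of -0.22 (-0.34 to -0.10) under TMM. Egr4, the remaining EGR gene, had 1 and 3 reads and is given no fold.

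**Figure D4:**
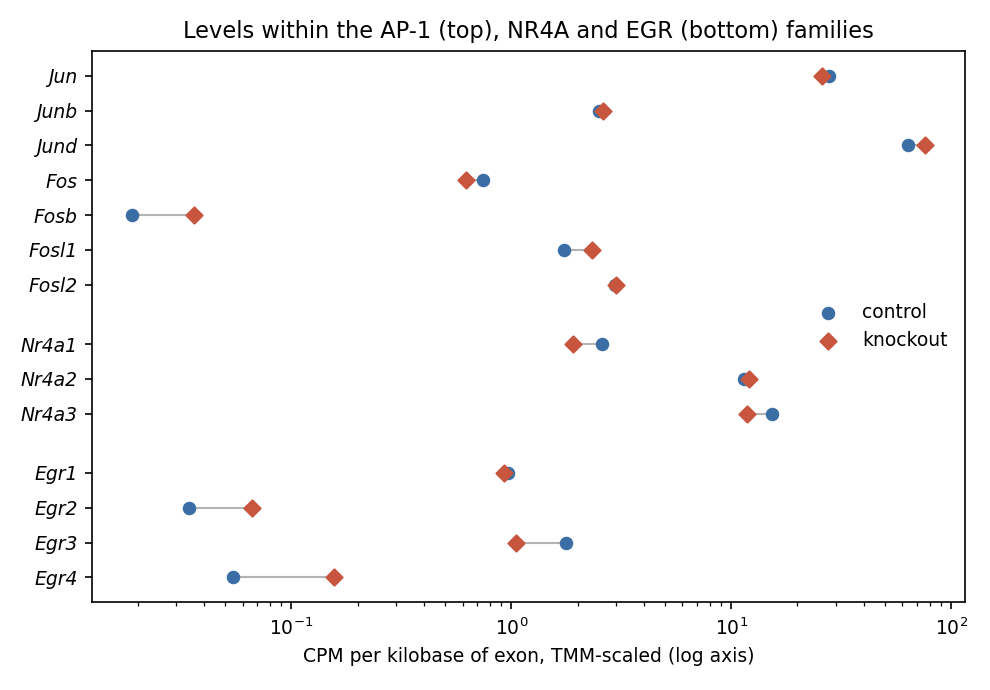
Level of each gene of the AP-1, NR4A and EGR families in the control (blue circles) and knockout (red diamonds) library, in TMM-scaled CPM per kilobase of exon on a log axis. Jund, at 63.5 and 75.9, and Jun lie above the other AP-1 genes, and Nr4a2 and Nr4a3 lie above Nr4a1 in both libraries; Fosb, Egr2 and Egr4 rest on 1 to 3 reads.

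Other genes that the same stimuli induce were examined by lists. By the 1.5-fold limit, 5.43% of all measured genes were lower and 3.52% higher. Among measured genes with 20 to 99 reads, where Dusp5 and Bag3 below lie, 19.6% were lower. Higher genes were also more frequent at few reads, where Ccn2 below lies. They were 506 of all 14366 measured genes, but 165 of the 11400 with 100 or more reads. Of 25 other inducible transcription factors, 21 were measured, 0 were at least 1.5-fold lower and 1 was higher, with a median log2 ratio of 0.09. The higher one was Jdp2, which encodes a JUN-dimerising repressor of AP-1. It had 36 and 64 reads and stood at a log2 ratio of 0.76 (0.16 to 1.40). Csrnp1, a nuclear protein gene, and Maff, a small MAF factor gene, were at -0.50 (-1.44 to 0.40) and -0.48 (-1.49 to 0.48). Of 32 inducible signalling and effector genes, 29 were measured, 1 was lower and 2 were higher, with a median of 0.06. Dusp5, a nuclear phosphatase that shuts off ERK, had 31 and 17 reads and was 1.87-fold lower, with an interval of -1.87 to -0.03 on the log2 scale. Plk3, a stress-induced kinase gene, had 72 and 118 reads, which put its log2 ratio at 0.65 (0.22 to 1.10). Ccn2, a matricellular growth factor gene, had 17 and 30 reads, 0.74 (-0.14 to 1.71). Amigo3, an adhesion protein gene, was at 0.39 (-0.21 to 1.01).

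The machinery upstream of the immediate early genes was well covered by reads. All 35 regulators, from receptors and calcium channels through kinases to transcription factors and coactivators, were measured with 310 to 5197 reads each. At least 1.5-fold apart were 0 of 35. Few genes with many reads were: of 11400 with 100 or more reads, 200 were lower and 165 higher. Of all measured genes, 5.43% were lower and 3.52% higher. The median log2 ratio of the 35 regulators was 0.07 under TMM and 0.04 by library total. Beyond counting error 9 were higher and 1 lower, where 12.5% and 9.3% of measured genes were. Either way, the share was 18.7% among genes with 100 to below 1000 reads and 32.1% with 1000 or more. These counts beyond counting error were made under TMM only, and the interval of Creb1, 1 of the higher ones, barely leaves out 0. Creb1, the calcium and cyclic AMP responsive factor, had 1387 and 1552 reads and was at 0.11 (0.00023 to 0.21). Srf, the serum response factor, had 399 and 474 reads and was at 0.19 (-0.0032 to 0.39). Mef2c, a MEF2 factor of cortical excitatory neurons, had 1730 and 1686 reads and was at -0.09 (-0.19 to 0.0039). The members of the list furthest from 0 were Grin1, the obligate NMDA receptor subunit, at 0.42 (0.17 to 0.67), Atf1, a CREB paralog, at 0.30 (-0.00029 to 0.61), Map2k2, which encodes the ERK kinase MEK2, at 0.29 (0.16 to 0.42), and Camk2a, a calcium-calmodulin kinase subunit gene, at 0.29 (0.12 to 0.46).

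Corepressors and feedback inhibitors had 14 of 14 measured, 1 higher and 0 lower, and a median of 0.02 that turned to -0.02 when scaled by library total. The higher one was Nab2, which encodes a corepressor that binds EGR proteins. It had 41 and 71 reads and stood at a log2 ratio of 0.73 (0.16 to 1.33). Spry2 and Spry4, inhibitors of receptor tyrosine kinase signalling, were at -0.27 (-0.65 to 0.12) and -0.25 (-0.96 to 0.45), and Dusp7, another ERK phosphatase gene, was at 0.22 (-0.04 to 0.48). Heat shock genes, which report cell stress during handling, had 9 of 12 measured, 1 lower and 0 higher. Their median of 0.0028 turned to -0.03 when scaled by library total. For both lists, the shares over all measured genes were 5.43% lower and 3.52% higher. The lower heat shock gene was Bag3, a chaperone cofactor. It had 54 and 28 reads and stood at a log2 ratio of -0.99 (-1.72 to -0.32). The next furthest were Hspa5, the chaperone BiP of the endoplasmic reticulum, at -0.13 (-0.21 to -0.04), Hsp90aa1 at 0.11 (0.05 to 0.18) and the mitochondrial co-chaperonin gene Hspe1 at -0.09 (-0.27 to 0.09). Hspa1a and Hspa1b, the inducible HSP70 genes, had 2 to 5 reads in each library and were not measured.

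Delayed response genes, which the immediate early transcription factors and sustained activity switch on, included several that were higher in the knockout library. Of 24 measured, 5 were at least 1.5-fold higher, all 5 beyond counting error, and 0 were lower. At a 2-fold limit 1 was higher, Nefl. Of all measured genes, 3.52% were higher by the 1.5-fold limit and 2.02% were so beyond counting error. Beyond counting error at any fold, 9 of the 24 were higher and 1 lower, where 12.5% and 9.3% of measured genes were. The lower one was Nrn1, with 730 and 564 reads, at a log2 ratio of -0.43 (-0.59 to -0.27). The median of the list was 0.27. Nefl, a neurofilament gene, had 168 and 379 reads and was 2.17-fold higher (log2 interval 0.85 to 1.39). Vgf, a neuropeptide precursor gene induced by neurotrophins and activity, had 69 and 136 reads, 0.92 (0.49 to 1.36). Tac1, the substance P precursor gene, had 71 and 119 reads, 0.68 (0.25 to 1.13), and Mmp9, a matrix metalloprotease gene, had 153 and 254, 0.67 (0.38 to 0.97). The fifth was Cbln4, a synaptic organiser gene, with 58 and 96 reads, at 0.67 (0.19 to 1.17). Bdnf, the neurotrophin gene that CREB and Npas4 act on, had 15 and 22 reads, which put its log2 ratio at 0.48 (-0.52 to 1.55).

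Several of these genes also mark neurons outside the dorsal cortex, and markers of such regions moved with them. Of 14 ventral telencephalic genes, 7 were at least 1.5-fold higher and 0 lower, 0 were at 0 reads, and their summed level was 813.1 CPM in control and 1205 CPM in knockout. Of 12 diencephalic and midbrain genes, 8 were higher and 0 lower, and Shox2 had 0 reads in the control library. By the same limit, 3.52% of all measured genes were higher and 5.43% lower. The part of these regions in the difference of the delayed genes was not tested. Endothelial genes, in cells that also express Fos, Junb and Egr1, had 2 of 13 measured members lower and 0 higher, a median of -0.31 and a summed level of 272.8 and 235.5 CPM, with Slco1a4 at 0 reads in the knockout library. The part of vessels in the values of the immediate early genes was not tested. The 12 cortical excitatory neuron genes, in cells where activity induces these genes later in life, had 0 apart and a summed level of 3252 and 3155.

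**Figure D5:**
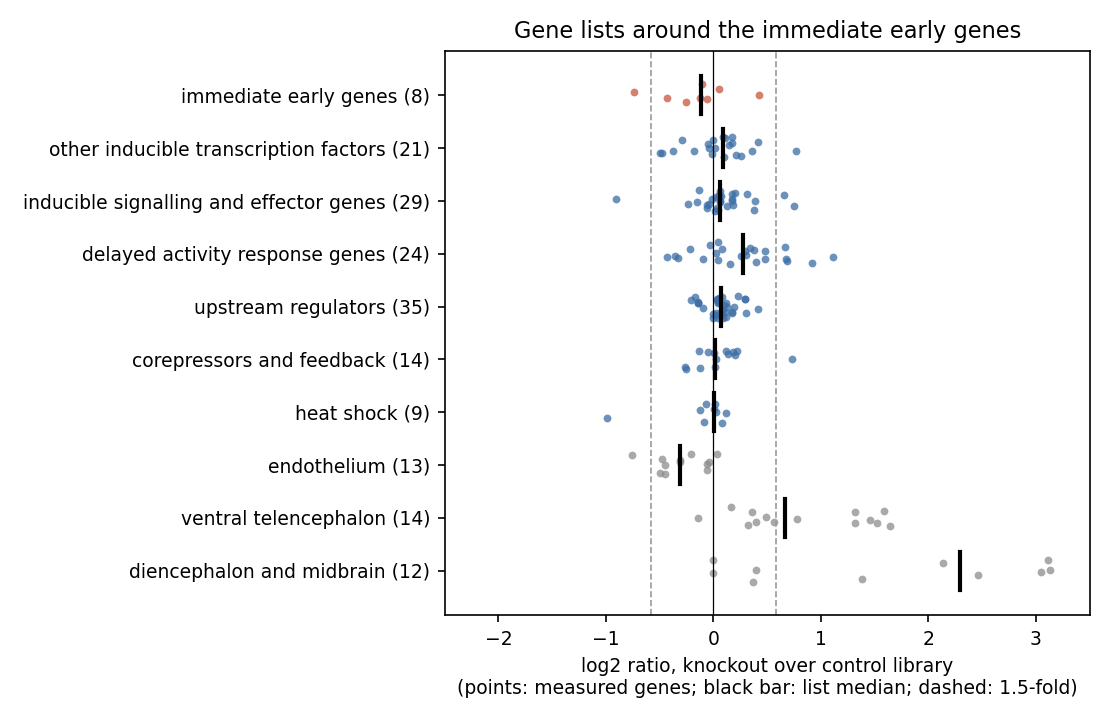
Log2 ratios, knockout over control, of each measured gene (points, with the number measured in brackets) of the immediate early genes (red), 6 related lists (blue) and 3 lists of other cells or regions (grey); black bars are list medians and dashed lines mark 1.5-fold, with 1 endothelial and 2 diencephalic genes outside the axis. The immediate early and upstream lists lie around 0, whereas the delayed response list has a median of 0.27 and the ventral and diencephalic lists medians of 0.67 and 2.30.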

How the data were processed

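RNA was extracted with Trizol and made into TruSeq libraries, per the labels' protocols. Bowtie2 2.2.3, TopHat2 2.0.12, HTSeq 0.6.0 and build mm9 are named without roles, per the submitters' processing notes. The deposited raw counts per gene, 1 column per genotype, were used as they are. Positions in the deposited table were identical to GENCODE M21 gene models on GRCm38 for 15537 of 19616 genes with a symbol, so coordinates are given as GRCm38. The deposited log2 fold change and adjusted p-value are the authors' own, and no source used here names the test; only the adjusted p-value is printed.

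TMM scaling was done with edgeR 4.0.16 (R 4.3.3), and log2 ratios took a prior of 0.5 read. The floor is 3 reads per library. The rest was done in Python 3.11.15 with scipy 1.17.1, numpy 2.4.6 and pandas 2.3.3, and figures with matplotlib 3.10.9. The calculation was tested on simulated data. The alternatives were scaling by library total or by DESeq2 1.42.0 size factors, read minimums of 100 and none, a prior of 5 reads, a 2-fold limit, shares per kilobase and a shorter promoter window.

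The members, lists and alternatives were chosen with earlier results of these data known. Named genes are the 10 members, H2afz and H2afv, up to 4 measured genes furthest from 0 on each related list, the 3 with most reads on each list of cell type markers, and Creb1, Srf, Mef2c and Bdnf. Not every gene under this rule is printed for the marker lists. Relatives of the members, Junos, Cbln4, Nrn1, Slco1a4, Shox2, Hspa1a and Hspa1b were named after their values were seen. Marker sums without their leading gene were likewise added after the values were seen. Genes were not ranked by likeness of pattern, since 2 libraries give no pattern.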

Additional observations from a re-analysis of the deposited data

How the results depend on the processing

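Over all alternatives tried, 67 values and counts of the main results stayed within their limits, and 8 did not. The limit was the counting interval for single ratios and shares, and 1.5 times the reported count for counts. For a median it was a range of ranks among the ratios of the list itself. For the 8 members that range ran from -0.74 to 0.42, a wide limit that a median hardly leaves. The ratio of the summed members is not among these values, and its interval left out 0 by library total. The log2 ratio of each measured member moved by less than its own counting interval under each scaling and prior. Egr3 was the single member at least 1.5-fold apart, and the count of lower members was 0 with a read minimum of 100 and 0 at a 2-fold limit, because Egr3 has 42 reads and a 1.67-fold difference. Without a read minimum, 2 members, Fosb and Egr2 with 1 and 2 reads each, counted as higher. Over the 6 related lists, 2 lower and 9 higher genes became 0 lower with a minimum of 100 reads, 0 lower and 1 higher at 2-fold, and 5 lower without a minimum. With the promoter window ending at the start, TATAAA was found in 1 member instead of 2. Of the counts and medians of single related lists, 14 moved by more than these limits, all of them counts under another read minimum or a 2-fold limit. The one with most genes was that of higher delayed response genes, 5 at 1.5-fold and 1 at 2-fold. The median log2 ratio of all measured genes was 0.0018 under TMM, -0.0331 by library total and 0.0251 by DESeq2 size factors. No paired analysis was possible because each genotype has 1 library. For the same reason no library could be left out. Depth limits the 5 members with 20 to 99 reads, of which Fos needed a difference of over 2.3-fold to be seen.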
